A study of Homo sapiens with 12 samples.

Results

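A group of 10 epithelial antimicrobial and antiprotease genes was followed in TIGK cells, a human gingival keratinocyte line immortalized with telomerase (hTERT). The genes are DEFB1, DEFB4A, CAMP, LCN2, SLPI, PI3, RNASE7, LTF, LYZ, and ADM. They were found by their symbols among the 58735 genes of the raw count table, and all 10 were in it. All cells were kept at 48 mM glucose in an Arg-free SILAC base medium with insulin, TGF-α, pituitary extract, and hydrocortisone among its supplements. Treated cells were given 500 μM Arg for 24 or 48 h, and untreated controls were cultured equally long without it. Each of the 4 groups (control 24 h, Arg 24 h, control 48 h, and Arg 48 h) had 3 RNA sequencing libraries, named replicates A, B, and C, which makes 12 libraries. The groups come from a single cell line grown in multiwell plates, and the labels do not say whether the replicates were separate cultures. The p-values therefore measure the spread between these libraries, which may be technical.

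Oral epithelium meets microbes constantly and answers with small secreted proteins. Beta-defensins (DEFB1, DEFB4A) and the cathelicidin precursor CAMP give cationic peptides that damage microbial membranes. RNASE7 and LYZ are antimicrobial enzymes, and LTF and LCN2 withhold iron from bacteria, the former by binding the metal and the latter by binding bacterial siderophores. SLPI and PI3 (elafin) are inhibitors of neutrophil serine proteases that also act on microbes, and ADM encodes adrenomedullin, a peptide hormone with antimicrobial activity that is induced by hypoxia. Several of these genes are known to be switched on in keratinocytes by microbial products, by cytokines, or during differentiation.

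In these cells, 5 of the 10 genes were expressed: ADM, SLPI, PI3, RNASE7, and LCN2. CAMP and DEFB1 had a handful of reads, LTF had 2 reads in a single library, and DEFB4A and LYZ had none. SLPI was 1.26-fold lower with Arg when both times were averaged. This was the only Arg difference among the 5 that passed the test with all libraries, and it lay just under the threshold. RNASE7 was the most variable of the expressed genes apart from LCN2, and its result at 24 h depended on single libraries.

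The libraries held between 16542243 and 19040964 counts. Control 48 h replicate B stood apart from its group. Its counts differed from those of replicates A and C by a chi-square per degree of freedom of 20.9 and 23.9, against 3.66 to 12.5 in all other replicate pairs. Mitochondrially encoded genes took 1.55% of its counts, against 0.906% and 0.707% in the other 48 h controls. At 24 h, that share was 1.2% to 1.3% in control libraries and 0.624% to 0.802% in Arg libraries. The 13 keratinocyte markers were all expressed, with KRT5 at a mean of 28500 CPM (counts per 1e+06 counts of a library). Of 10 leukocyte markers, CD14 alone passed the filter on low counts, and their summed level was between 1.25 and 4.67 CPM in every library. The neutrophil markers ELANE and CSF3R were at 0 throughout. Of 8 fibroblast markers, COL1A1, PDGFRB, LUM, and DCN passed it, while PDGFRA, THY1, COL1A2, and COL3A1 had at most 5 counts in any library. The summed level of the 8 was 34.5 to 54.4 CPM in the 24 h control and 30.3 to 41.4 CPM with Arg, and 85.4 to 103 and 72.8 to 100 CPM at 48 h. DCN was lower with Arg at 24 h (log2 fold change −0.70, adjusted p = 0.0294) and averaged (−0.43, adjusted p = 0.0412) by edgeR, though DESeq2 called neither. DCN and COL1A1 rose with time in the control (1.08 and 0.97, adjusted p = 0.000451 and 6.47e-05) and with Arg (1.6 and 0.80, adjusted p = 1.97e-05 and 0.000294).

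Promoter sequences from RefSeq (GRCh38.p14) were at hand for CAMP, LCN2, RNASE7, LTF, and ADM. They are shown to give the sequence context of the expressed genes, and the expression data do not test them. The 250 bases before each start site were searched on both strands for 5 motifs. These were ACGTG (the core of the hypoxia response element), TGANTCA (an AP-1-like form, any middle base), and TGACGTCA (the cAMP response element). The others were GGANTTTCC (an NF-κB form) and TATAAA (the TATA box). The stretches of 30 bases around each match in an expressed gene follow, written 5′ to 3′ on the plus strand, which is the coding strand of all 3 genes, with the matched letters in capitals.
ADM, chr11:10305034-10305063: cacccgtgcgctTATAAAgcacaggaacca
RNASE7, chr14:21042210-21042239: atccttaggtgtcCACGTatttgggacatg
RNASE7, chr14:21042248-21042277: gaggcatgaaccTGATTCAtttcctgatcc
LCN2, chr9:128149389-128149418: cttggcaaagaaTGAATCAacccaccctag
The TATA box of ADM began 27 bases before its start site, and 10.7% of all 35116 promoters in the table held these letters. RNASE7 held ACGTG on the reverse strand (printed as CACGT), beginning 139 bases before its start site, as 18.5% of all promoters did on one strand or the other. TGANTCA began 102 bases before the start site of RNASE7 and 52 bases before that of LCN2, and 6.57% of all promoters held it. Its middle base was T in RNASE7 and A in LCN2. The usual AP-1 site has C or G there, so neither match is that site. ADM did not hold ACGTG in this window. None of the 5 genes held TGACGTCA or GGANTTTCC, which were in 1.65% and 1.45% of all promoters, and CAMP and LTF held none of the 5 motifs. The start sites used for ADM, RNASE7, and LCN2 lie inside the deposited spans of these genes. The printed stretches therefore lie inside those spans, and the first of RNASE7 crosses the edge. For ADM, whose deposited exonic length equals its whole span, the stretch was part of the counted exon.

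Levels were compared between genes as CPM after TMM normalization, per kb of exonic length. By this measure SLPI was the highest of the group at a mean of 40.6 CPM per kb (range 31.1 to 56.3 over the 12 libraries), above 92.3% of the 15148 genes that passed the filter on low counts. ADM followed at 19.4 (16.3 to 24.7, above 84.3% of genes) and PI3 at 14.3 (9.35 to 19.6, above 79.2%). RNASE7, at 1.6 CPM per kb (0.588 to 3.79), lay above 34.7% of the expressed genes, and LCN2, at 0.409 (0.0725 to 1.19), lay above 15%. The median of all expressed genes was 3.53 CPM per kb. SLPI was above ADM in all 12 libraries, and ADM was above PI3 in 11 of 12. PI3 was above RNASE7 and RNASE7 above LCN2 in all 12. LCN2 and CAMP were not ordered, with LCN2 higher in 5 of 12 libraries, nor were CAMP and DEFB1, with CAMP higher in 6.

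**Figure D1:**
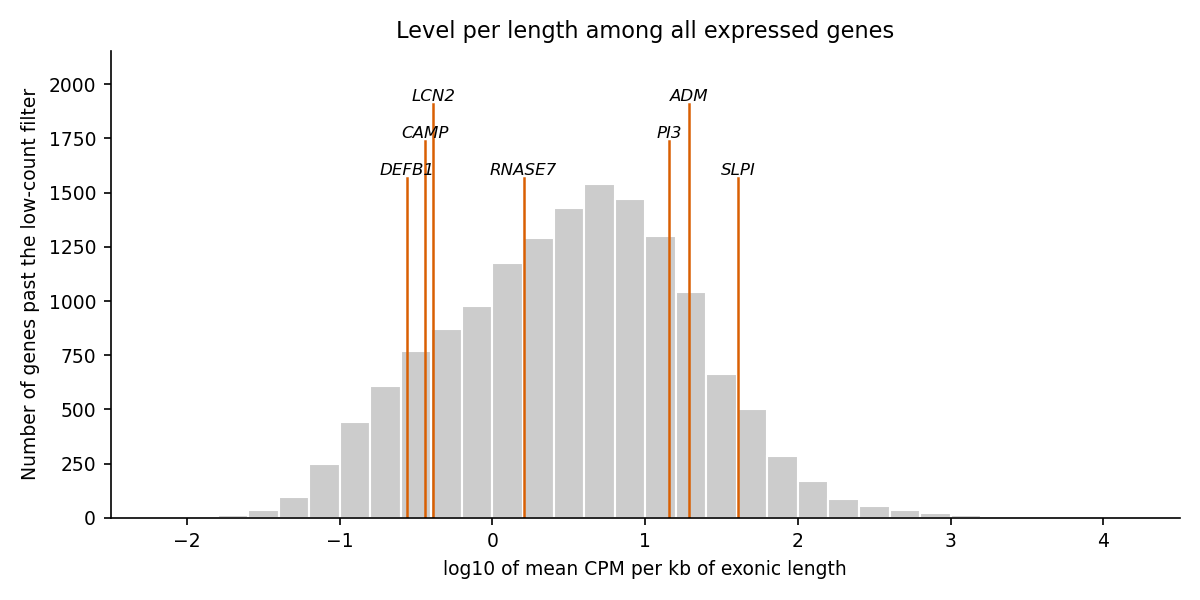
Histogram of the mean level per length (log10 of CPM per kb of exonic length, x axis) of all genes that passed the filter on low counts (number of genes, y axis), with a vertical line at each of 7 genes of the group. SLPI, ADM, and PI3 lie above the median of 3.53 CPM per kb, and RNASE7, LCN2, CAMP, and DEFB1 lie below it. CAMP and DEFB1 did not pass the filter themselves.

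The places of ADM and LCN2 depended on the gene model. The deposited exonic length of ADM is 2718 bases, its whole span on the chromosome, so its introns count toward its length. With the length of the Ensembl canonical transcript (1492 bases), an alternative chosen after seeing the data, ADM reached 35.4 CPM per kb (29.6 to 45.0), and SLPI was above it in 8 of 12 libraries in place of 12. The canonical transcript of SLPI has the same 596 bases as the deposited model, so its level stayed at 40.6. LCN2 went from 0.409 to 0.798 CPM per kb (0.141 to 2.32), which put it above CAMP in 8 of 12 libraries in place of 5, and RNASE7 above it in 10 in place of 12. ADM and SLPI together took between 81.8% and 89.7% of the reads of the 10 genes in each library.

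The peptide genes were nearly silent. DEFB1 (ENSG00000164825, chromosome 8 of GRCh38, 6870575 to 6878022), the constitutive epithelial defensin, had 29 counts in all, spread over 7 libraries. It had 6, 4, and 0 counts in control 24 h replicates A, B, and C, and 8, 0, and 0 with Arg. At 48 h it had 4, 0, and 1 in the control and 4, 2, and 0 with Arg. Replicate A held the highest count of DEFB1 in each group. DEFB1 overlaps GS1-24F4.2 on the opposite strand, which had 6 counts, and the strand setting of the counting is not given in the sources used here. DEFB4A (chromosome 8, 7894629 to 7896711), an inducible defensin, had 0 counts in every library, as did its near-identical copy DEFB4B. A count of 0 allows up to 3 counts, or 0.158 to 0.181 CPM by library, counting error only.
CAMP (ENSG00000164047, chromosome 3, 48223347 to 48225491) had 59 counts over 11 of the 12 libraries. It had 9, 4, and 3 counts in the 24 h controls, and 7, 4, and 2 with Arg. At 48 h the controls held both the highest and the lowest value, with 11, 7, and 0, and the Arg libraries had 4, 3, and 5. The groups overlapped at both times.

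Of the antimicrobial enzymes, LYZ (chromosome 12, 69348341 to 69354234), the lysozyme of secretions and phagocytes, had 0 counts in every library, and so did the gene AC020656.1 that overlaps it on the opposite strand. RNASE7 (ENSG00000165799, chromosome 14, 21042226 to 21044234), the ribonuclease that keratinocytes secrete, was expressed in all 12 libraries, with 16 to 98 counts each.
In the 24 h controls, RNASE7 stood at 4.66, 0.904, and 5.68 CPM (3.75 ± 2.51, SD, n = 3), and with Arg at 2.02, 1.51, and 2.58 CPM (2.04 ± 0.533). At 48 h it stood at 1.84, 0.882, and 3.0 CPM in the control (1.91 ± 1.06) and at 1.98, 1.31, and 2.36 CPM with Arg (1.88 ± 0.532). Replicate B was the lowest library of all 4 groups, and control 24 h replicates A and C were the highest 2 values of all 12. The groups overlapped at both times.
The log2 fold change of RNASE7 with Arg was −0.87 at 24 h (standard error, SE, 0.443, adjusted p = 0.252, edgeR's quasi-likelihood test adjusted over all tested genes). Control 24 h replicate B decided this result, since without it the log2 fold change was −1.34 and the adjusted p was 0.00564. At 48 h the log2 fold change was −0.01 (SE 0.427, adjusted p = 0.99). The change of the Arg effect between the times was 0.86 (SE 0.694, adjusted p = 0.87), so the times were not shown to differ.
RNASE7 lies within the span of NDRG2, which is transcribed from the other strand and had 5670 counts against 519 for RNASE7. No exon of RNASE7 overlaps an exon of NDRG2 in GENCODE v44, though unspliced NDRG2 reads could be counted for RNASE7 where strand was not used. NDRG2 was itself lower with Arg at 24 h in every library. It stood at 20.9 to 24.5 CPM, against 27.2 to 31.5 CPM in the control. Of all genes, 13.4% had every Arg library lower at 24 h. At 48 h the NDRG2 groups overlapped, at 21.2 to 28.1 CPM with Arg and 24.8 to 29.5 CPM in the control. Both genes were lowest in replicate B and highest in replicate C of the 24 h controls. RNASE7 went from 0.904 to 5.68 CPM there, and NDRG2 from 27.2 to 31.5 CPM. The part of NDRG2 in the RNASE7 values was not tested.

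**Figure D2:**
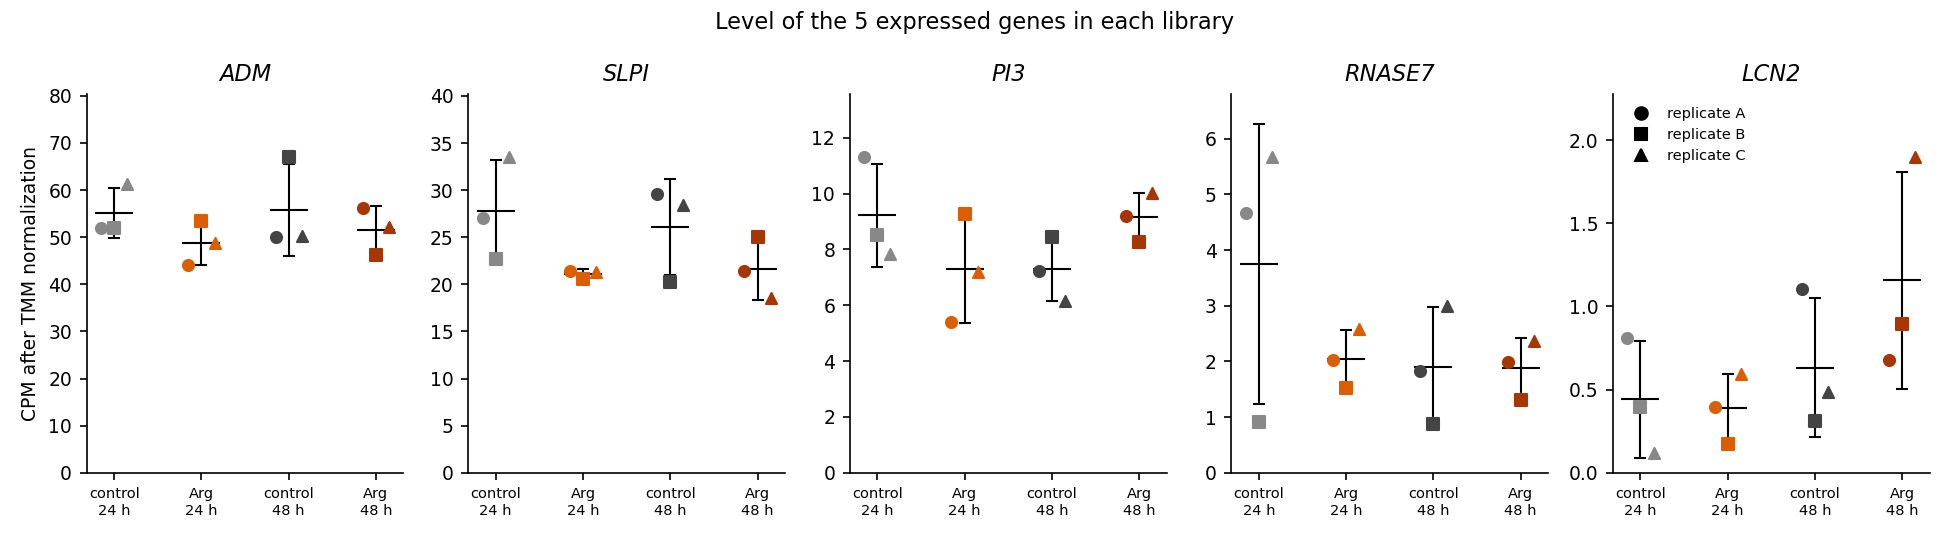
Level of the 5 expressed genes in CPM after TMM normalization (y axis, from 0, a scale for each gene) in the 3 libraries of each group (x axis). Circles, squares, and triangles are replicates A, B, and C, and the long bar and whiskers are the mean ± SD. The 3 Arg 24 h values of SLPI, 20.6 to 21.5 CPM, lie below all 24 h controls, and replicate B of RNASE7 is the lowest square in each group.

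The iron-withholding genes were at the edge of detection or below it. LTF (ENSG00000012223, chromosome 3, 46435645 to 46485234), lactoferrin, had 2 counts, both in Arg 24 h replicate B, and 0 in the other libraries. LCN2 (ENSG00000148346, chromosome 9, 128149071 to 128153455), which encodes the siderophore-binding lipocalin, had reads in all 12 libraries and 142 counts in total.
The counts of LCN2 were 15, 7, and 2 in the 24 h controls, and 7, 3, and 11 with Arg at 24 h. At 48 h they were 21, 6, and 9 in the control, and 13, 15, and 33 with Arg. Arg 48 h replicate C was the highest of all. Arg and control libraries overlapped at both times, as did the control libraries of both times. All 3 Arg 48 h libraries were above all 3 Arg 24 h libraries. The share of all genes with such a separation between the times was not computed, and these counts are low.
LCN2 did not pass the filter on low counts in the 24 h comparison. At 48 h its log2 fold change with Arg was 0.86 (SE 0.562, adjusted p = 0.541). Between 24 and 48 h with Arg, its level went from 0.386 ± 0.208 to 1.16 ± 0.653 CPM (SD, n = 3), a log2 fold change of 1.55 (SE 0.658, unadjusted p = 0.0288, adjusted p = 0.0965, edgeR over all genes). In the control it went from 0.441 ± 0.351 to 0.632 ± 0.416 CPM, a log2 fold change of 0.5 (SE 0.674, adjusted p = 0.641).

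**Figure D3:**
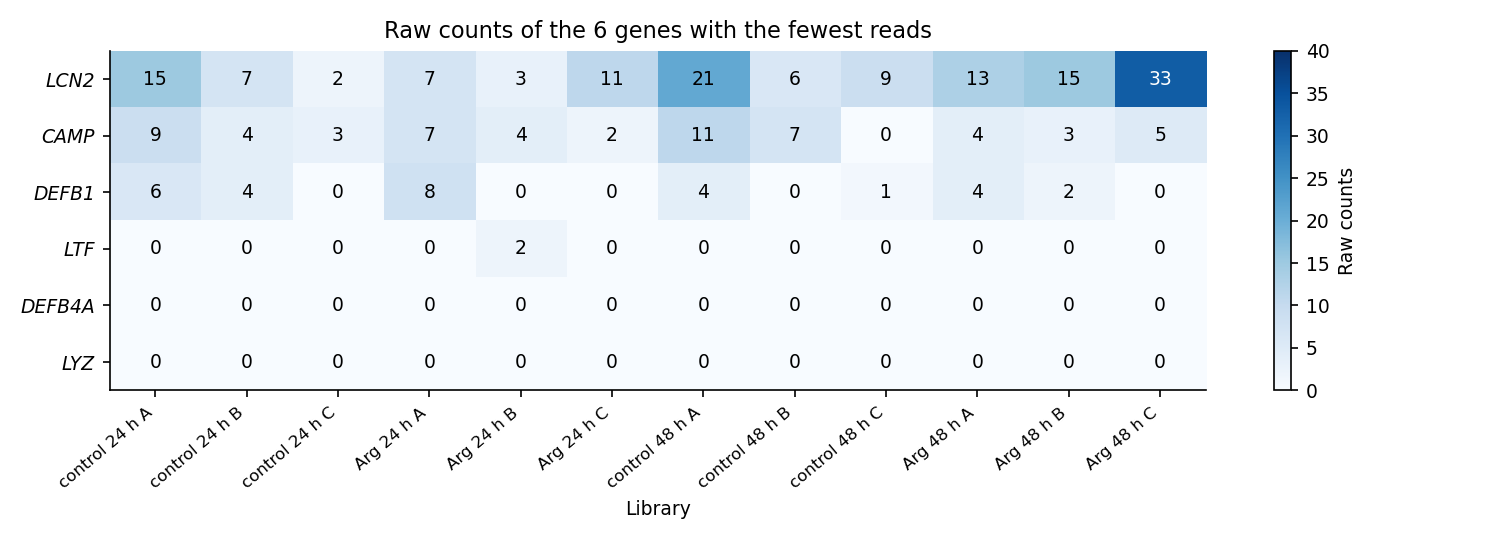
Raw counts, written in each cell and shaded from 0 to 40, of the 6 genes of the group with the fewest reads (rows) in each of the 12 libraries (columns). LCN2 has reads in every library, with 33 counts in Arg 48 h replicate C, and DEFB4A and LYZ have 0 in all of them.

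The antiproteases SLPI and PI3 belong to the whey acidic protein family and lie 75695 bases apart on chromosome 20, on opposite strands. SLPI (ENSG00000124107, chromosome 20, 45252239 to 45254564) had between 322 and 579 counts in each library.
In the 24 h controls SLPI stood at 27.1, 22.7, and 33.6 CPM (27.8 ± 5.46, SD, n = 3), and with Arg at 21.5, 20.6, and 21.3 CPM (21.1 ± 0.457). At 48 h it stood at 29.5, 20.3, and 28.5 CPM in the control (26.1 ± 5.06) and at 21.4, 25.1, and 18.5 CPM with Arg (21.7 ± 3.27). All Arg libraries were below all controls at 24 h, with the control replicates much more spread than the treated ones. At 48 h the groups overlapped, because control replicate B was below Arg replicates A and B.
With Arg, SLPI was 1.31-fold lower at 24 h (log2 fold change −0.39, SE 0.131, unadjusted p = 0.00753, adjusted p = 0.0797 from edgeR's test), which did not pass the threshold of 0.05. At 48 h it was 1.21-fold lower (−0.27, SE 0.152, adjusted p = 0.463), which did not pass either. Averaged over both times, SLPI was 1.26-fold lower (−0.33, SE 0.106, unadjusted p = 0.00554, adjusted p = 0.0492), which passed. An exact permutation of the treatment labels within each time, two-sided and chosen after seeing the data, gave p = 0.03 over 400 arrangements on log2(CPM + 1), where the smallest possible p was 0.005. The permutation was run on SLPI alone, after the same libraries had given its call. Its p was not adjusted for that choice and adds no separate evidence.
The averaged call depended on single libraries. It was lost when any 1 of the 12 libraries was left out other than control 24 h replicate B, control 48 h replicate B, or Arg 48 h replicate B, with adjusted p-values up to 0.151. Without control 48 h replicate B, the library that stood apart, SLPI was lower at 48 h (−0.42, adjusted p = 0.0126) and averaged (−0.41, adjusted p = 0.00344). The 24 h comparison passed without control 24 h replicate B (−0.52, adjusted p = 0.00922). At each single time, SLPI passed in only 1 of the 6 fits that lacked a library. The log2 fold changes of these fits ran from −0.52 to −0.24 at 24 h and from −0.42 to −0.17 at 48 h. Their adjusted p-values reached 0.37 at 24 h and 0.85 at 48 h. The share of mitochondrially encoded reads was lower in the Arg 24 h libraries than in their controls, and so was DCN. DCN went from 31.7 ± 8.82 to 19.5 ± 4.85 CPM (SD, n = 3). At 48 h the mitochondrial share was 1.14%, 1.31%, and 1.16% with Arg, against 0.906%, 1.55%, and 0.707% in controls A, B, and C. The part of the mitochondrial share or of DCN in the SLPI values was not tested. In bulk RNA, fewer cells that express SLPI and less SLPI RNA per cell cannot be told apart.

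PI3 (ENSG00000124102, chromosome 20, 45174876 to 45176544) had between 96 and 209 counts in each library. In the 24 h controls it stood at 11.3, 8.53, and 7.82 CPM (9.22 ± 1.85, SD, n = 3), and with Arg at 5.4, 9.26, and 7.2 CPM (7.29 ± 1.93). At 48 h it stood at 7.24, 8.46, and 6.17 CPM in the control (7.29 ± 1.15) and at 9.18, 8.28, and 10.02 CPM with Arg (9.16 ± 0.872). The groups overlapped at both times.
PI3 leaned in opposite directions at the 2 times. Its log2 fold change with Arg was −0.34 at 24 h (SE 0.207, adjusted p = 0.34) and 0.33 at 48 h (SE 0.171, adjusted p = 0.431). The difference between the times was 0.67 (SE 0.281, unadjusted p = 0.0266, adjusted p = 0.667, edgeR's interaction test), so it did not pass when adjusted over all genes. The averaged log2 fold change was −0.01.

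ADM (ENSG00000148926, chromosome 11, 10304680 to 10307397) had the most reads of the group, between 775 and 1293 counts in each library. In the 24 h controls it stood at 52.0, 52.0, and 61.2 CPM (55.1 ± 5.35, SD, n = 3), and with Arg at 44.2, 53.5, and 48.7 CPM (48.8 ± 4.68). At 48 h it stood at 50.1, 67.1, and 50.2 CPM in the control (55.8 ± 9.77) and at 56.3, 46.1, and 52.2 CPM with Arg (51.6 ± 5.1). The groups overlapped at both times, and the highest value of all was in control 48 h replicate B.
The log2 fold change of ADM with Arg was −0.18 at 24 h (SE 0.101, adjusted p = 0.316) and −0.12 at 48 h (SE 0.118, adjusted p = 0.703). Averaged, it was −0.14 (SE 0.0816, adjusted p = 0.269), and none of the 3 passed the test. Without control 48 h replicate B, the 48 h value turned to 0.04 (adjusted p = 0.804).

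Taking the comparisons one at a time, 0 of the 4 genes tested at 24 h were called at an adjusted p under 0.05 in either direction by edgeR, where 2.79% of all 14279 tested genes were called higher and 3.84% lower. At an unadjusted p under 0.05, SLPI alone passed, lower, against 11.9% of all genes called lower and 10.8% called higher. DESeq2 gave the same counts, 0 and 1. SLPI was also the only gene of the 4 whose groups did not overlap, against 13.4% of all genes with every Arg library lower and 12.9% with every one higher. All 4 log2 fold changes at 24 h were negative, from −0.87 to −0.18 with a median of −0.37, beside a median of 0.003 over all genes.
At 48 h, edgeR called 0 of 5 genes at either criterion, and DESeq2 did the same. Among all 14562 genes, 0% were called higher and 0.117% lower at the adjusted p, and 5.94% and 7.49% at the unadjusted p. The groups of all 5 overlapped, where 8.51% of all genes had every Arg library lower and 8.56% every one higher. The median of the 5 was −0.01, beside 0.00178 over all genes. Averaged over both times, 1 of 5 genes was called lower and 0 higher by either tool, against 6.32% and 5.04% of all 15148 genes. At the unadjusted p it was the same 1 gene, SLPI, against 13.9% called lower and 13.1% called higher. The share of 1 in so few genes says little about the group. The comparisons at single times and the averaged one share their libraries.

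**Figure D4:**
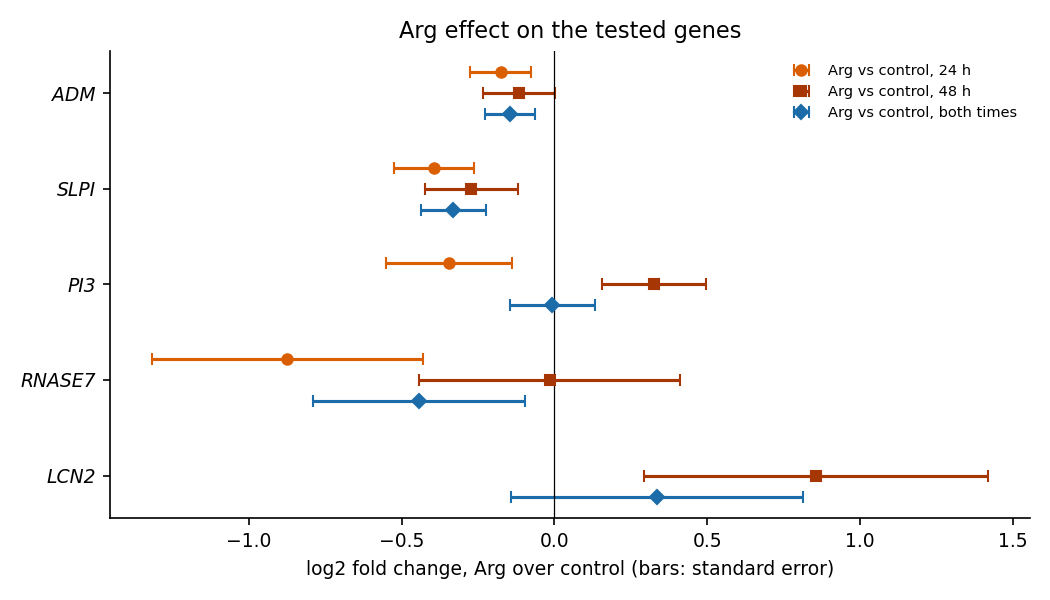
log2 fold change of Arg over control (x axis) for the 5 expressed genes at 24 h (circles), at 48 h (squares), and averaged over both times (diamonds), with the standard error as bars. SLPI lies left of 0 in all 3, PI3 changes side between the times, and LCN2 has no value at 24 h because it did not pass the filter on low counts there.

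No gene of the group was called for a different Arg effect at 48 h than at 24 h, where 0.0132% of genes were called higher and 0% lower. At an unadjusted p under 0.05, PI3 alone passed, higher, against 3.06% of all genes called higher and 3.8% called lower, and DESeq2 gave the same counts.

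Time in culture changed many genes, but 0 of these 5 by edgeR and DESeq2. Of all genes, 12% were called higher and 12.4% lower at 48 than at 24 h in the control, and 11.3% and 11.5% with Arg. The largest fall in the control was that of RNASE7, with a log2 fold change of −0.97 (SE 0.479, adjusted p = 0.15). Single libraries mattered here too. With each left out in turn, the value ran from −1.46 to −0.55, with adjusted p-values up to 0.532. Of these 12 fits, only the one without control 24 h replicate B passed (−1.44, adjusted p = 0.00856). At an unadjusted p under 0.05, edgeR called 0 genes of the group in the control, where 18% of all genes were called higher and 17.9% lower. With Arg it called LCN2 higher, where these shares were 17.5% and 17.4%. DESeq2 called 1 gene lower in the control and 1 higher with Arg. SLPI and ADM stayed within 0.09 of 0 on the log2 scale in both.

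The other genes of these families were examined as lists. Of 70 other antimicrobial peptides and proteins, 5 passed the filter over all 12 libraries and between 54 and 59 were at 0 in every library of a group. The most expressed was CXCL14, an epithelial chemokine with antimicrobial activity. It stood at 34.8 ± 15.9 CPM in the 24 h control and 137 ± 110 CPM in the 48 h control (SD, n = 3), and at 35.4 ± 15.6 and 143 ± 64.3 CPM with Arg. It rose with time in both (log2 fold changes 1.97 and 2.01, adjusted p = 0.00258 and 0.00235), and was the only gene of this list to do so. The 48 h control mean rested on replicate B, at 263 CPM against 75 and 71.1 CPM in A and C. Without it, an alternative chosen after seeing the data, the mean was 73 CPM and the rise in the control 1.07 (SE 0.311, adjusted p = 0.02). With Arg against control, edgeR and DESeq2 called 0 of 3 tested genes at 24 h and 0 of 5 at 48 h, and 0 passed at the unadjusted p. Without control 48 h replicate B, CXCL14 was higher with Arg at 48 h (0.97, SE 0.206, adjusted p = 0.00215), against 0.07 with all libraries.
Of 38 other epithelial antiproteases, 11 passed the filter over all libraries. The cystatins CSTA, CSTB, and CST3, which inhibit cysteine proteases, and the Kunitz inhibitors SPINT1 and SPINT2 stood between 107 and 328 CPM on average, and none of them was called with Arg in all libraries. WFDC2, a relative of SLPI and PI3 from the same gene family, stood at 1.39 CPM. TFPI2 and SPINK6, inhibitors of serine proteases, fell with Arg at 24 h.
TFPI2 stood at 73.2 to 191 CPM in the 24 h controls (mean 139) and at 23.1 to 37.4 CPM with Arg (mean 29.7), with no overlap. Its log2 fold change was −2.22 (SE 0.241, adjusted p = 2.45e-05). SPINK6 went from 2.01 ± 1.13 to 0.575 ± 0.276 CPM (−1.78, SE 0.498, adjusted p = 0.0394). These 2 of the 11 tested genes were called by both tools, against the 3.84% of all genes called lower, and the median of the list was −0.04.
At 48 h, 0 of 10 antiproteases were called by edgeR or DESeq2. At the unadjusted p 1 passed, TFPI2, lower, beside 7.49% of all genes lower and 5.94% higher. The log2 fold change of TFPI2 was −1.65 (SE 0.417, adjusted p = 0.157). Control 48 h replicate B stood at 5.76 CPM, against 26.6 and 22.7 CPM in A and C. The Arg 48 h libraries stood at 4.54 to 7.54 CPM. Without that control library, the 48 h value of TFPI2 was −2.08 (SE 0.16, adjusted p = 3.78e-09). Averaged over both times with all libraries, TFPI2 was lower with Arg (−1.94, SE 0.27, adjusted p = 0.000291). TFPI2 also fell with time, with log2 fold changes of −2.92 in the control and −2.35 with Arg (adjusted p = 3.3e-05 and 0.000468).

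The targets of the antiproteases were largely absent. The neutrophil proteases ELANE and CTSG, which SLPI inhibits, had 0 counts in every library, and PRTN3, which elafin inhibits, had at most 4 counts in a group. Of 12 proteases in this list, 8 passed the filter over all 12 libraries, and these were epithelial. They include ST14 (matriptase), PRSS8 (prostasin), and KLK5 and KLK7, the kallikreins that process the CAMP product and shed the skin's outer layer. At 24 h, 0 of 7 were called with Arg by edgeR, 3 passed at the unadjusted p, all higher, beside 10.8% of all genes, and DESeq2 called 1, higher. At 48 h, 0 of 7 were called by either tool and 0 passed at the unadjusted p. Averaged over both times, ST14 rose (log2 fold change 0.2, SE 0.0622, adjusted p = 0.0465). With time in the control, TMPRSS4, PRSS8, KLK7, and ST14 rose and none fell, beside the 12% and 12.4% of all genes that did, and the log2 fold changes lay between 0.28 and 1.01. Without control 48 h replicate B, 2 rose and 0 fell, beside 7.82% and 8.75% of all genes.
Among the partners and receptors of the group, the parts of the adrenomedullin receptor were unequal. CALCRL, its receptor protein, had 29 counts in all and did not pass the filter, and RAMP3, one of its alternative partners, had 0. RAMP2, the other alternative partner, stood at 4.24 CPM. RAMP1, which joins CALCRL in the receptor for calcitonin gene-related peptide instead, stood at 7.57 CPM. PAM, the enzyme that amidates adrenomedullin, stood at 29.0 CPM, and ACKR3, a scavenger receptor, at 37.3 CPM. The LCN2 receptor SLC22A17 stood at 2.52 CPM. ANXA2, a surface partner of SLPI, stood at 3050 CPM, and TGM1, a transglutaminase that can cross-link elafin, at 49.2 CPM. With Arg, 0 of the 15 tested at each time were called by edgeR or DESeq2. At the unadjusted p, 3 passed at 24 h (ACKR3 and ADM2 higher, MMP9 lower), beside 10.8% of all genes higher and 11.9% lower. At 48 h 1 passed (RAMP2, lower), beside 5.94% higher and 7.49% lower. With time in the control, MME, an enzyme that degrades adrenomedullin, rose (1.37, adjusted p = 5.83e-05), as did LRP1, a receptor that takes up lactoferrin (1.09, adjusted p = 0.000129), ACKR3, and TGM1, while ANXA2 and MMP9 fell, among 16 tested. Of all genes, 12% were called higher and 12.4% lower in that comparison. Without control 48 h replicate B, 3 partners rose and 2 fell, beside 7.82% and 8.75% of all genes.

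The upstream receptors and transcription factors were nearly all expressed, 28 of 31 and 25 of 25. TLR4, the receptor for bacterial lipopolysaccharide, had 0 counts in every library, and its partner LY96 had 5 counts in all. IL10RB, with 86 counts in all, did not pass the filter either. At 24 h, 0 of 28 receptors were called with Arg by edgeR or DESeq2, and 5 passed at the unadjusted p, 4 of them lower, beside the 11.9% of all genes lower and 10.8% higher. Averaged over both times, 3 fell and 0 rose, beside 6.32% and 5.04% of all genes. These were CD14, a co-receptor for bacterial lipopolysaccharide (log2 fold change −0.97, adjusted p = 0.016), TLR2, a receptor for bacterial lipoproteins (−0.34, adjusted p = 0.0352), and IL20RB (−0.21, adjusted p = 0.0305). CD14 stood at 2.82 ± 0.64 CPM in the 24 h control and 1.52 ± 0.454 CPM with Arg, and at 2.44 ± 0.778 and 1.17 ± 0.332 CPM at 48 h. CD14 is also the only leukocyte marker that passed the filter.
Of the transcription factors, EPAS1 (−0.45), KLF4 (−0.45), STAT3 (−0.3), and BCL3 (−0.78) fell at 24 h, with adjusted p-values between 0.00262 and 0.0355, and 0 rose, beside the 3.84% and 2.79% of all genes called lower and higher. EPAS1 is a hypoxia-inducible factor, KLF4 a factor of epithelial differentiation, STAT3 the effector of several cytokines, and BCL3 a partner of NF-κB subunits. The median of all 25 was −0.09, beside 0.003 over all genes. These 4 were also the ones called lower on average over both times, beside 6.32% of all genes. At 48 h alone 0 of 28 receptors and 0 of 25 factors were called by edgeR or DESeq2. At the unadjusted p by edgeR, 5 receptors passed (IL1RL2 and EGFR higher, CD14, TLR2, and IL20RB lower). Of the factors 2 passed (BCL3 and CEBPB, both lower). The shares of all genes were 5.94% higher and 7.49% lower.

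Since ADM is induced by hypoxia, 30 hypoxia-inducible genes were set beside it. At 24 h, 8 of the 29 tested fell with Arg and 1 rose, beside the 3.84% and 2.79% of all genes called lower and higher. In all, 26 of 29 had a log2 fold change below 0, beside 49.5% of all genes, and the median was −0.211 beside 0.003 over all genes. Among those that fell were VEGFA, an angiogenic factor (−0.97, adjusted p = 1.27e-05), P4HA1, a collagen prolyl hydroxylase subunit (−0.67, adjusted p = 0.000552), BNIP3, a mitophagy receptor (−0.49, adjusted p = 0.0024), and the glycolytic genes LDHA (−0.4) and PFKFB3 (−0.61). STC2, which encodes a secreted glycoprotein, rose (0.62, adjusted p = 0.00203). VEGFA stood at 85.5 ± 9.69 CPM in the 24 h control and 43.7 ± 2.71 CPM with Arg (SD, n = 3). The value of ADM in the same comparison, −0.18, lay close to the median of the list and did not pass the test.
At 48 h, 0 of 30 were called by edgeR and 1 by DESeq2. By edgeR 7 passed at the unadjusted p, all lower but STC2, beside 7.49% of all genes lower and 5.94% higher. In all, 21 had a log2 fold change below 0 (49.7% of all genes), and the median was −0.095. Averaged over both times, 8 fell and 1 rose (6.32% and 5.04% of all genes), with a median of −0.188. Without control 48 h replicate B, 11 fell and 1 rose, beside 10.3% and 9.38% of all genes.

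**Figure D5:**
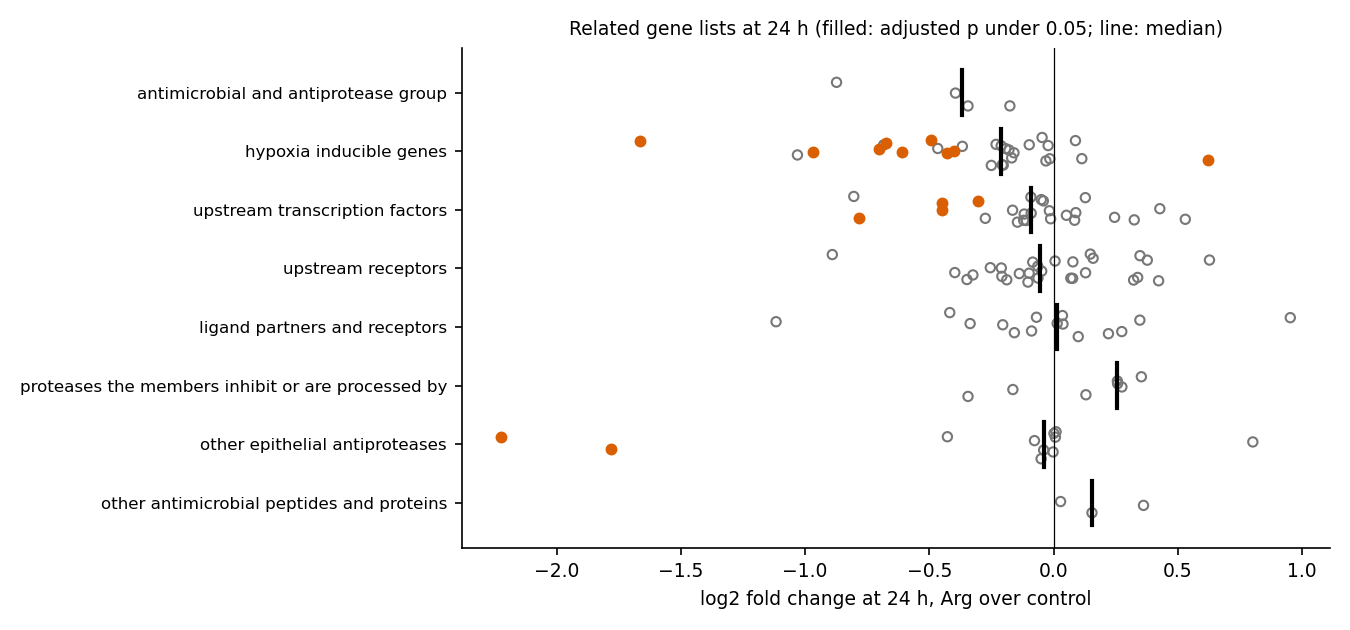
log2 fold change of Arg over control at 24 h (x axis) for every tested gene of the antimicrobial and antiprotease group and of 7 related lists (rows). Filled points have an adjusted p under 0.05, open points do not, the black line is the median of each row, and points are spread vertically for sight. Filled points lie in 3 rows, the hypoxia-inducible genes, the transcription factors, and the other antiproteases, and all but STC2 lie left of 0.

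The 48 h counts of these lists depended on control 48 h replicate B. Without it, an alternative chosen after seeing the data, 7.76% of all genes were called higher and 8.17% lower at 48 h. Of the lists, 4 receptors were then called higher and 3 lower, 0 transcription factors higher and 3 lower, 1 antiprotease higher and 3 lower, and 2 hypoxia-inducible genes higher and 4 lower. CXCL14 among 5 antimicrobial genes, ST14 among 7 proteases, and ACKR3 among 16 partners were also called higher, and none of these 3 lists held a gene called lower.

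The genes most like each expressed gene were found by Pearson's r of log2 CPM over the 12 libraries, among 15143 genes, as a description of these libraries. For SLPI they were FCRLB (r = 0.926), ISG15 (0.903), and ENY2 (0.901), and for RNASE7 they were SHB (0.912), SGPP1 (0.857), and TIGD5 (0.852). For LCN2 they were ITGA2B (0.876), MMP11 (0.872), and VCP (0.871), and for ADM they were ZNF519 (0.84), HES5 (0.808), and TMPRSS11E (0.801), an epithelial serine protease. PI3 had the least close partners, LRCH1 (0.826), NCOA5 (0.802), and VAV2 (0.796). No gene was among the 3 closest of more than 1 of the 5. The highest of so many correlations over few libraries is large by selection, and points of the same library share its depth and composition.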

How the data were processed

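RNA sequencing of TIGK cells at 48 mM glucose, with or without 500 μM Arg for 24 or 48 h, gave 12 libraries. Before they deposited the raw counts per gene, the authors filtered reads with fastp, mapped them to GRCh38 with STAR, and counted them with featureCounts. Versions, annotation release, and strand setting are not given in the sources used here. The tests used all 12 count columns, leaving out 0.

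Counts were tested with edgeR 4.0.16 in R 4.3.3 (TMM, edgeR's filter on low counts, quasi-likelihood test), at each time separately or in a model of all 12 libraries for averaged, interaction, and time contrasts. The Benjamini–Hochberg adjustment covered every tested gene, with a threshold of 0.05. Expressed means past this filter over 12 libraries. Library totals limit the precision of low counts, and limits for counts of 0 cover counting error only. Scripts were tested on simulated data. The 10 genes, the 11 lists, and the tests were chosen with earlier results of these data known.

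Named are all 10 genes, at most 6 genes per list and comparison with an adjusted p under 0.05, the 3 most correlated genes, and genes that overlap the group. List genes named for their level, their absence, or a value that missed the threshold were chosen after their values were seen. Alternatives were DESeq2 1.42.0, edgeR with DESeq2's size factors, scaling by library size, no filter, at least 10 counts in every library, 1 model, the replicate block, and leaving out each library.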

Additional observations from a re-analysis of the deposited data

How the results depend on the processing

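SLPI averaged over both times stayed lower under every alternative run. Its log2 fold change was −0.41 to −0.25 with 1 library left out (adjusted p = 0.00344 to 0.151, called in 3 of 12), and with all libraries it was called in 5 of 6 other settings (adjusted p = 0.00435 to 0.0521). Calls turned on low counts and single libraries, and the cause was not tested. With no filter on low counts, 1 gene of the group was lower at 24 h (SLPI, −0.4, adjusted p = 0.0333), and 1 was lower with time in the control (RNASE7, −0.98, adjusted p = 0.0208).

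Counts over all genes at 48 h, 0 higher and 17 lower, became 39 and 141 with DESeq2, 199 and 374 with no filter, and 4 and 37 with all 12 libraries in 1 model. The interaction counts, 2 and 0, became 7 and 7 with DESeq2 and 51 and 37 with no filter.

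With the replicate block (the letters A, B, and C as a term), the 48 h counts over all genes were 43 higher and 141 lower. In the same fit, 0 genes of the group were lower on average (SLPI −0.32, adjusted p = 0.0521), and RNASE7 at 48 h was 0.063. The correlations of deviations of same-lettered libraries, −0.0615 to 0.0361, did not pair them. The block changed no other call in the group.

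With each library left out in turn, 0 to 2 genes of the group were lower at 24 h, 0 to 1 at 48 h, 0 to 1 on average, and 0 to 1 with time in the control. Over all genes, 126 to 647 were higher and 233 to 882 lower at 24 h, 0 to 1152 and 5 to 1213 at 48 h, 374 to 1454 and 521 to 1594 on average, and 0 to 28 and 0 to 18 for the interaction. With time they were 1039 to 1967 and 1128 to 2064 in the control and 1110 to 2046 and 1146 to 2066 with Arg. Control 48 h replicate B gave the highest counts at 48 h. The sign of values that were not called turned for PI3 averaged (−0.11 to 0.081), RNASE7 at 48 h (−0.36 to 0.47), ADM at 48 h (−0.188 to 0.040), and for the interaction of SLPI (−0.032 to 0.261) and ADM (−0.021 to 0.215). It also turned with time in the control for LCN2 (−0.17 to 1.28), SLPI (−0.218 to 0.066), and ADM (−0.135 to 0.100), and with Arg for SLPI (−0.082 to 0.133) and RNASE7 (−0.305 to 0.091). For 1 gene in 3 against 3 libraries, the smallest p of an exact permutation test is 0.1. Genes with few counts, such as LCN2, CAMP, and DEFB1 allow no firm statement at this depth.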
